A study of Mus musculus with 8 samples.

Results

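Resting B cells from the mouse spleen made up 4 of the 8 samples of the series and were described from the 2 deposited B cell files of the 4 in all. The samples were CD43- B cells of C57BL/6J mice aged 6 to 8 weeks, 2 female and 2 male, and no group carried an allele or a treatment. The other 4 samples were naive CD4+ T cells and were not analysed here. The paper states that each biological replicate was a pool of cells from 4 to 5 mice. Both samples of a sex name the same file, which may hold 1 or both of them, and the submitters describe the material as pooled replicates. Each sex was therefore 1 library, no level below has a spread between replicates, and sex cannot be told apart from library. Members were the CpGs of chromosomes 1 to 19 listed in both files, and 18729049 CpGs qualified, 91.9% of the 20383623 CG sites of the autosomes of GRCm38. Reads were summed in 1-kb tiles with at least 5 such CpGs and 20 reads in each library, which left 1550438 tiles.

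Methylation of the cytosine in CpG dinucleotides is copied when DNA replicates, by Dnmt1, and is removed by passive loss or by steps that start with the Tet enzymes. Most of a mammalian genome is methylated, while CpG islands at gene starts, active enhancers and regions held by Polycomb proteins usually are not. Resting B cells carry an immunoglobulin receptor with the signalling chains Cd79a and Cd79b, and their identity is kept by transcription factors such as Pax5 and Ebf1. Whole genome oxidative bisulfite sequencing (WGoxBS) was used, in which an oxidation step before bisulfite makes 5-hydroxymethylcytosine read as T, so that the remaining C signal is 5-methylcytosine. The level of a site or region is the share of its reads that were methylated.

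The female library held 354634149 reads at CpGs and the male library 280919817, and the median depth of an autosomal CpG was 17 reads in the first and 14 in the second. Wilson 95% intervals, given for single values, cover counting error only. The reads of a region are summed over its CpGs, so a read over several CpGs counts at each of them. Intervals of regions are therefore too narrow. On the mitochondrial genome 0.271% of reads were methylated in the female library and 0.727% in the male library.

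Levels of CpGs at gene starts can be seen in 6 windows, which are shorter than the promoters measured later and can differ from them. Each window runs from 250 bases before to 50 bases after the RefSeq start on GRCm38.p6, 5′ to 3′ on the strand of the gene, with every CG in capitals. The first set is of B cell genes, the B cell receptor chain Cd79a at chr7:24897247-24897546 on the plus strand, the inhibitory receptor Cd22 at chr7:30878979-30879278 on the minus strand, and the Fc receptor-like Fcrla at chr1:170927534-170927833 on the minus strand.
Cd79a: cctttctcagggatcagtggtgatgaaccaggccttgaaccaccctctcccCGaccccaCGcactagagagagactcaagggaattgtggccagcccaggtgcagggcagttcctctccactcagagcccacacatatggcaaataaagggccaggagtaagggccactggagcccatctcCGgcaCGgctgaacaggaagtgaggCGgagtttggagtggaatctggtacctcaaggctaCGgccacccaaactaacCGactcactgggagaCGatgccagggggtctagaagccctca
Cd22: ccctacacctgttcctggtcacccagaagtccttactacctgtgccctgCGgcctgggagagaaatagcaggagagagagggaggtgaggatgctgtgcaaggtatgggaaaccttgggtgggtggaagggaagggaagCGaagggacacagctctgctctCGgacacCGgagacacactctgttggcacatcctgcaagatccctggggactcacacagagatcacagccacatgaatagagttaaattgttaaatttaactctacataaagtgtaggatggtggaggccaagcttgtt
Fcrla: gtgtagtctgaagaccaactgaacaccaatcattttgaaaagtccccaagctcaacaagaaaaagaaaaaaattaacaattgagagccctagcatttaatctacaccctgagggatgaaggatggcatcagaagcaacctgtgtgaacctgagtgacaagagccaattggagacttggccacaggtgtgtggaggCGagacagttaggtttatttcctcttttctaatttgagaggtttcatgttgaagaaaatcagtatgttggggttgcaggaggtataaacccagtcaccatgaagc
The Cd79a window has 8 CpGs, with 22 to 29 reads each in the female library and 8 to 16 in the male library. Not 1 methylated read was seen among the 207 and 104 reads summed over them. The Wilson upper limits of 1.82% and 3.56% are too low, since a read counts at each CpG it covers. The Cd22 window lies inside the gene as GENCODE draws it and wholly outside the Cd22 promoter measured later. It has 4 CpGs at 3.85% of 52 reads and 4.17% of 24 reads, and the methylated reads were all at the first of them. Fcrla has a single CpG in the window, with a level of 6.25% over 16 reads (95% interval 1.11 to 28.3) and 0% over 17 reads (0 to 18.4), which leaves its class unsettled in the female library.

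The second set is of genes that resting B cells should not use or use from 1 copy, the T cell receptor chain Cd3d at chr9:44981536-44981835 on the plus strand, the meiotic synaptonemal complex gene Sycp1 at chr3:102936051-102936350 on the minus strand, and the paternally expressed imprinted gene Peg3 at chr7:6730370-6730669 on the minus strand.
Cd3d: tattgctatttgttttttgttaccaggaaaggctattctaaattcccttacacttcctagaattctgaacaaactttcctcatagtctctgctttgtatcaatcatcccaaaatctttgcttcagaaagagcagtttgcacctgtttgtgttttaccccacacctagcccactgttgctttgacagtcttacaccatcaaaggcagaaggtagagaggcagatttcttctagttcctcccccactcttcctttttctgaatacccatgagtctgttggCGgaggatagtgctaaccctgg
Sycp1: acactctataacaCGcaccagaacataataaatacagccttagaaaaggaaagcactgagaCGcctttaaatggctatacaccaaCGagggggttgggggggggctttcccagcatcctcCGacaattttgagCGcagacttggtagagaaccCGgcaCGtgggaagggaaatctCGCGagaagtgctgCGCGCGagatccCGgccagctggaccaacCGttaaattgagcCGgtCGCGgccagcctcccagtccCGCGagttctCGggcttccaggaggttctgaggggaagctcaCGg
Peg3: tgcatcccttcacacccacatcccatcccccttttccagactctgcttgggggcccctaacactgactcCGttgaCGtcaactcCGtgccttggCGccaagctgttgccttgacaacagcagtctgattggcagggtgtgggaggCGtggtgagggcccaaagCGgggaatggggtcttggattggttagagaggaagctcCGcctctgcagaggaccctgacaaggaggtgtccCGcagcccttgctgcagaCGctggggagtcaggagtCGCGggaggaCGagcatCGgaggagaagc
Cd3d also has only 1 CpG in the window, and its level was 92.3% over 13 reads in the female library (66.7 to 98.6) and 84.6% over 13 in the male library (57.8 to 95.7), which reaches below 80% in both. The 21 CpGs of Sycp1 stood at 98.0% over 301 reads and 97.9% over 236 reads. The 13 CpGs of Peg3 were at 40.5% (95% interval 34.6 to 46.6) in the female library and 57.4% (48.95 to 65.4) in the male library. In the male library the 5 CpGs farthest upstream of the Peg3 start were between 87.5% and 90.9%, each on 8 to 11 reads, and the 5 farthest downstream were between 27.3% and 41.7% on 10 to 12 reads. The female library ran from 30% to 57.9% over the same 13 CpGs on 15 to 23 reads. Over the 2-kb promoter of Peg3 the levels were 43.4% and 38.8%. The RefSeq table had no window for Ms4a1 or Cd79b.

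Tiles fell into classes by the level in both libraries, unmethylated under 20%, intermediate from 20% to 80% and methylated over 80%. Of the 1550438 tiles, 33614 (2.17%) were unmethylated, 179035 (11.5%) intermediate, 1242907 (80.2%) methylated and 94882 (6.12%) fell in different classes in the 2 libraries. No tile was unmethylated in 1 library and methylated in the other. The median tile level was 91.5% in the female library and 91.4% in the male library. The unmethylated tiles were CpG-dense, with a median of 39 CpGs in the reference sequence against 9 over all tiles, and the 2.17% of tiles held 8.54% of the listed CpGs.

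**Figure D1:**
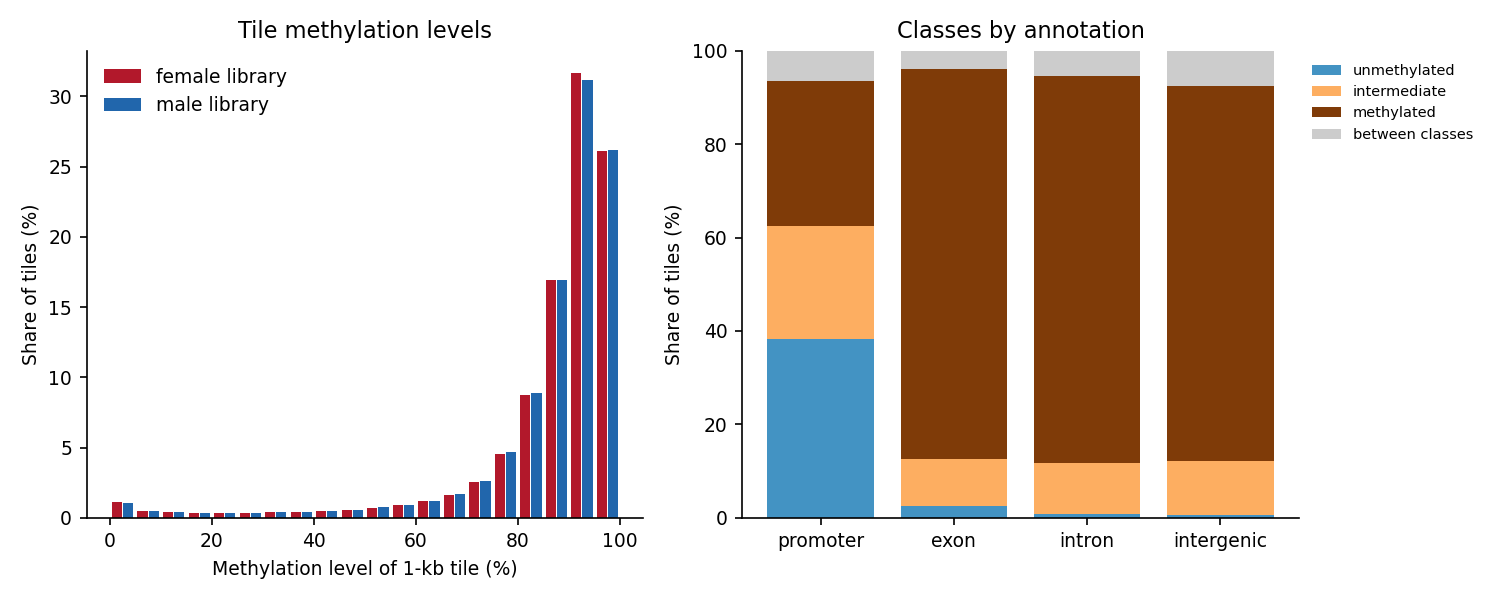
Left, share of tiles (%) against the methylation level of 1-kb tiles (%) in bins of 5 points, for the female (red) and male (blue) library; the bin from 90% to 95% holds 31.7% and 31.1% of tiles. Right, stacked shares (%) of the tile classes by annotation; unmethylated tiles make up 38.3% of promoter tiles and 0.649% of intergenic tiles.

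The classes were unevenly spread over the annotation. A promoter was taken as 1 kb on either side of the GENCODE start of a protein-coding gene. Tiles that overlap one were unmethylated in 38.3% of 49386 cases, against 2.43% of 241401 exonic, 0.763% of 590029 intronic and 0.649% of 669622 intergenic tiles. Promoter tiles were 3.19% of tiles and 56.2% of the unmethylated class. The number of CpGs in the reference differed between the classes as well. Of tiles with 5 to 9 CpGs 0.252% were unmethylated, of those with 40 to 59 CpGs 61.4%, and of those with 80 or more 97.3%. At equal density the annotation still differed. Of tiles with 40 to 59 CpGs 88.8% were unmethylated in promoters and 35.0% outside them. The tiles outside still include starts of non-coding genes and alternative transcript starts.

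Of 21754 tiles with 40 or more CpGs 3729 (17.1%) were methylated, and outside promoters 53.5% of tiles with 40 to 59 CpGs were. The one with most CpGs in the reference, 128 of which 120 were listed, lay over Zfpm1, which encodes a cofactor of GATA factors, with 96.8% of 1772 reads and 98.0% of 925 reads methylated at chr8:122336001-122337000. The next lay over Shroom3, an organiser of the apical actin network, with 97.0% and 96.5% and 122 reference CpGs, over Arhgap23 with 95.7% and 96.6% and 120 reference CpGs, near Rnf223 with 98.0% and 97.5% and 108, and over the pacemaker channel gene Hcn2 with 95.5% and 95.1% and also 108.

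Protein-coding promoters numbered 19895 with enough CpGs and reads, of 20807 annotated on the autosomes. Of these, 11136 (56.0%) were unmethylated, 3354 (16.9%) intermediate, 4289 (21.6%) methylated and 1116 (5.61%) between classes. The median promoter level was 13.0% in the female library and 14.4% in the male library. Gene bodies were high in each promoter class, with a median body level of 89.0% in both libraries for genes with an unmethylated promoter, and 86.8% and 86.7% for those with a methylated one. Of 10987 genes with an unmethylated promoter and a measured body, 8361 had a body over 80% in both libraries and 316 a body under 20% in both.

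CpG observed over expected, the number of CpGs relative to what base composition gives, split the promoters. At ratios over 0.6, 96.2% of 7277 promoters were unmethylated, at 0.4 to 0.6 75.1% of 4700, and at 0.1 to 0.2 1.56% of 3213. A promoter with a ratio under 0.4 is called CpG-poor here, and 604 of 7918 CpG-poor promoters (7.63%) were unmethylated.

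The 5 marker genes of resting B cells were all CpG-poor, with ratios from 0.135 to 0.333, and 3 of the 5 were unmethylated in both libraries. Ms4a1 (CD20, chr19:11249675-11266241) had promoter levels of 12.7% over 236 reads and 13.8% over 210 reads in the female and male library. Cd79a (chr7:24897381-24902197) had 8.27% over 701 reads and 12.5% over 439 reads. Cd79b (chr11:106311341-106314762), the other signalling chain, had 8.59% over 326 reads and 10.8% over 332 reads. Cd22 (chr7:30865402-30880342) was intermediate at 28.7% over 355 reads and 26.3% over 262 reads, and Fcrla (chr1:170917576-170927583) lay across the limit at 24.2% over 302 reads and 19.5% over 221 reads. The Cd22 promoter here does not include the RefSeq start, whose window was shown above. The class of both genes depended on the setting. Cd22 was at 18.4% and 20.3% with CpGs of at least 10 reads but at 29.0% and 26.1% within 500 bp of the start, and Fcrla was at 13.4% and 12.4% within 500 bp but at 22.8% and 17.4% with CpGs of at least 10 reads. In each of the 5 genes the lowest tile was under 20% in both libraries, at 0.245% and 1.73% in Cd79a, 1.27% and 0.855% in Cd79b, 0% and 3.03% in Ms4a1, 9.38% and 12.3% in Cd22, and 16.2% and 12.5% in Fcrla. This is the minimum over the tiles of the gene and the 5 kb before it. How many of all genes hold such a tile was not counted, and Dazl and Tet1 also do. The lowest tiles therefore say little of the cell type. The labelled cell type was checked on promoter methylation only, since the files hold no expression.

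The level of the gene body differed between the markers. The body of Cd79a was at 26.5% and 25.8%, that of Cd79b at 51.7% and 43.7%, and those of Ms4a1, Cd22 and Fcrla between 77.3% and 87.7%. Of the measured tiles of the gene and the 5 kb before it, 4 of 10 were unmethylated for Cd79a, 1 of 16 for Ms4a1 and 1 of 21 for Cd22. The 4 in Cd79a were not 1 region. A tile centred 3119 bases from the start stood at 66.9% and 72.4%, and past it a second low region ran beyond the end of the gene, with 0.231% and 1.27% at 7119 bases. The last of the 4, at 5119 bases, straddles the end of the gene, which is 4817 bases long. At 7119 bases the tile held 46 reference CpGs, against 22 in the tile at the start. Whether that region belongs to a neighbouring gene was not tested.

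**Figure D2:**
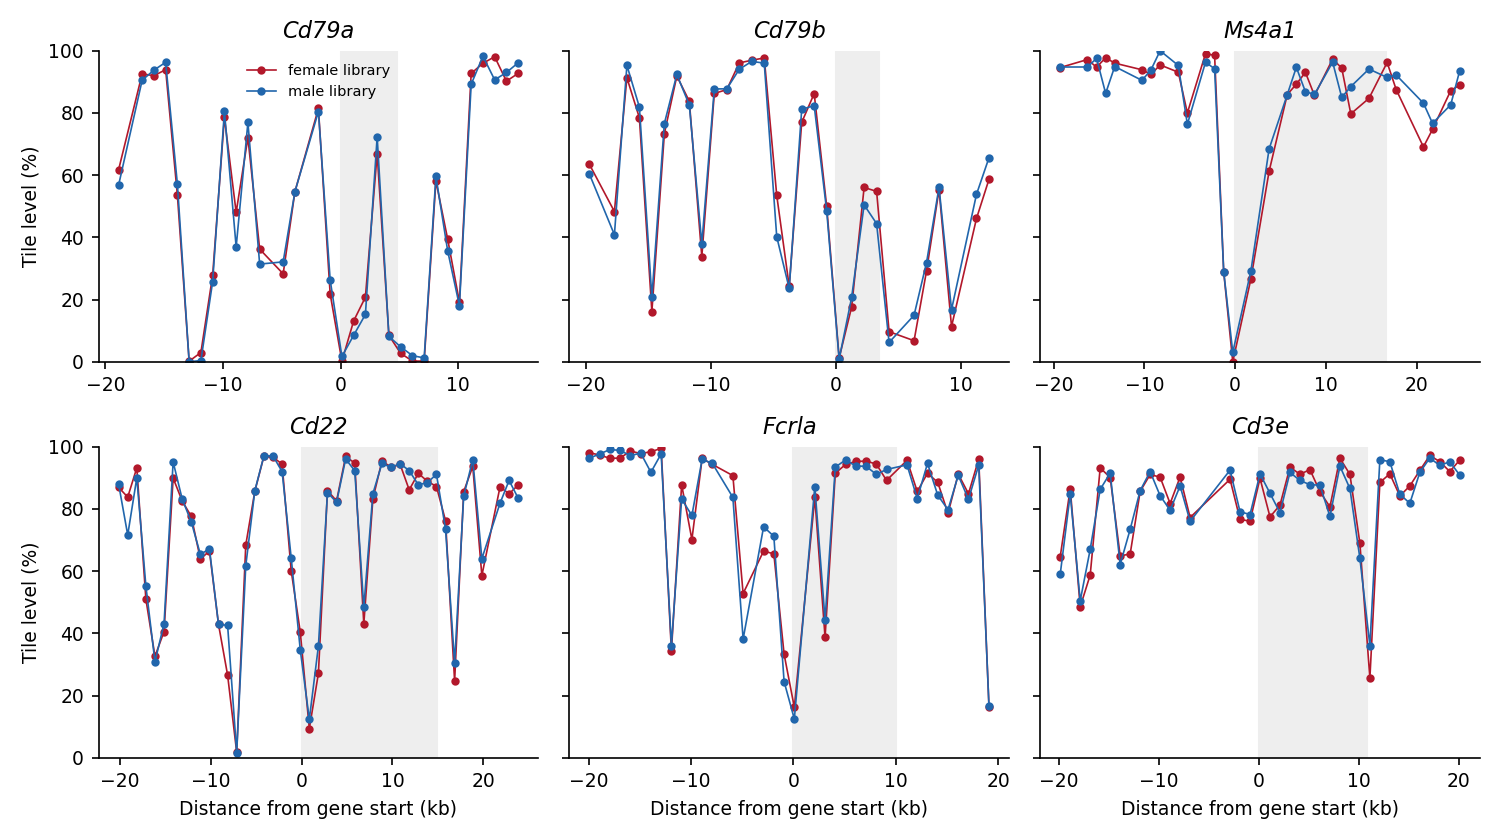
Level of 1-kb tiles (%) against distance from the gene start (kb) in the direction of transcription, with the gene shaded, for the 5 markers and the T cell gene Cd3e; points are tiles, red the female and blue the male library. Ms4a1 is at 0% and 3.03% in the tile at its start and between 26.7% and 29.3% in the nearest measured tiles on either side. The adjoining tile inside Ms4a1 was not measured. No tile of Cd3e within the gene or the 5 kb before it is under 20%.

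The list of B cell receptor and surface genes holds 21 genes, the 5 markers among them. Without the markers, 11 of 16 promoters were unmethylated, 4 intermediate and 1 methylated, with median levels of 10.2% and 11.3% beside 13.0% and 14.4% for all promoters. Of these 16 promoters 14 were CpG-poor, and 9 of the 14 (64.3%) were unmethylated beside 7.63% of all CpG-poor promoters. The lowest were the kinase gene Syk at 0.494% and 0.897%, which is CpG-rich, and the kinase gene Lyn at 2.79% and 3.47%, followed by the sialic acid receptor Siglecg at 2.54% and 3.75% with a ratio of only 0.121. The B cell activating factor receptor Tnfrsf13c was at 5.13% and 6.88%, Cd37 at 4.397% and 5.80%, Cd72 at 4.46% and 5.93%, the complement receptor Cr2 at 8.48% and 8.45%, and Cd40 at 7.31% and 8.75%. The IgE receptor Fcer2a was intermediate at 43.9% and 34.4%. The highest were the TACI gene Tnfrsf13b at 64.8% and 58.3% and the chemokine receptor Cxcr5 at 92.0% and 89.8%. Both had an unmethylated tile farther inside the gene, of 0% and 1.54% in Tnfrsf13b and of 0.840% and 3.08% in Cxcr5, and Cxcr5 was at 88.9% and 79.4% within 500 bp. The promoter window sits at the outermost annotated start, so a gene used from an inner start can read as methylated.

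**Figure D3:**
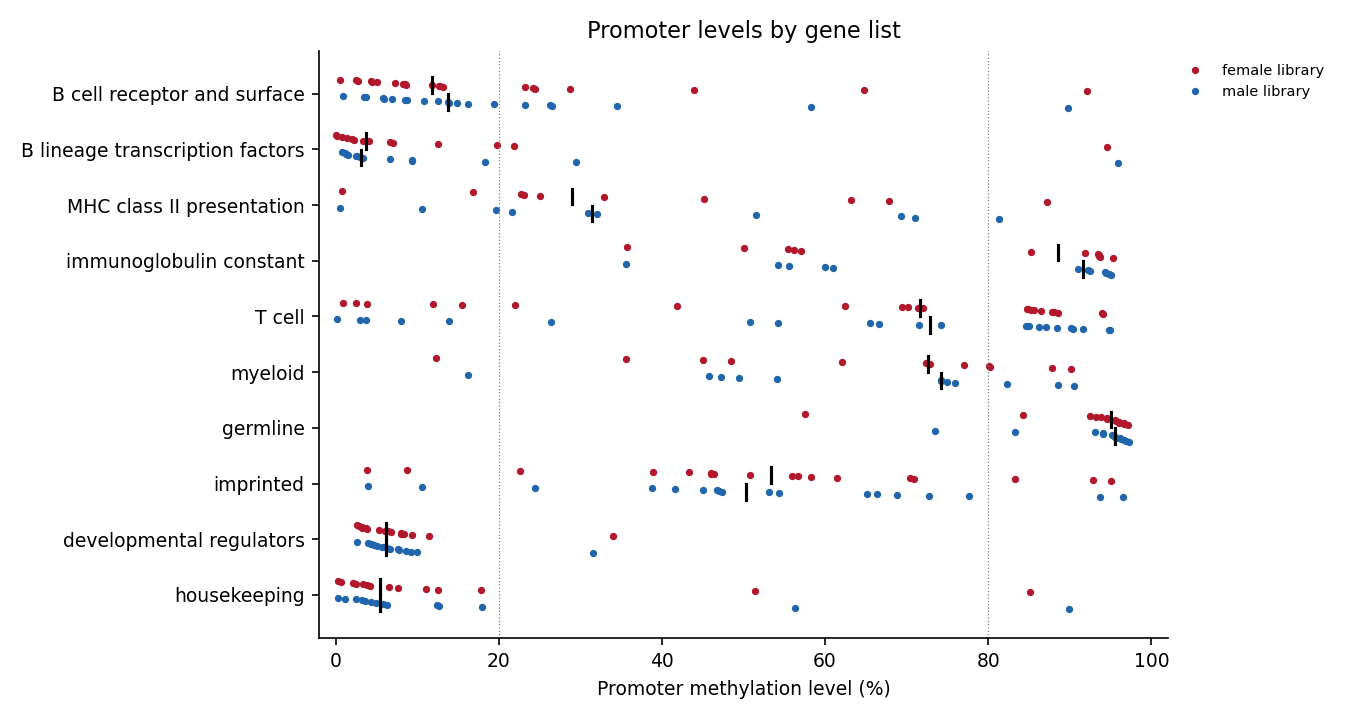
Promoter methylation level (%) of each gene by list, with the female library in red, the male library in blue and black bars at the list medians; dotted lines mark the class limits at 20% and 80%. The medians of the B cell receptor and transcription factor lists lie under 20% and those of MHC class II genes at 28.95% and 31.45%, germline genes lie over 80% apart from Dazl at 57.5% and 73.5%, and 13 of 18 imprinted genes lie between the limits.

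Transcription factors of the B lineage had 12 of 14 unmethylated promoters, with medians of 3.68% and 3.15%. The 10 that are not CpG-poor were all unmethylated, beside 87.9% of all 11977 such promoters, a share near that background. Of the 4 CpG-poor ones 2 were, beside 7.63% of all CpG-poor promoters, a count too small to read. Foxo1, which controls Rag and Il7r expression in precursors, was lowest at 0.0679% and 0.841% over 2945 and 2140 reads, next to Bcl11a at 0.215% and 1.30%. Pax5 stood at 4.04% and 3.32%, Ebf1 at 1.34% and 1.54%, Bach2, a repressor of plasma cell genes, at 0.801% and 1.19%, and the coactivator Pou2af1 at 6.64% and 6.72%. Spib, an ETS factor, was intermediate at the start with 21.9% and 29.5%, but its body was at 19.2% and 16.4%. Mef2c was methylated at its outermost start, 94.6% and 95.9%, while 11 of its 119 measured tiles were unmethylated and the lowest was at 0.924% and 0%.

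Low tiles of Pax5 lay mostly around its start, from -4013 to 8986 bases. Between them were tiles at 26.3% and 22.7% and at 32.3% and 37%. Of 181 measured tiles in the gene and the 5 kb before it, 14 were unmethylated. In 100-kb windows reads are summed, so that CpG-dense tiles weigh more. The 100-kb window that covers the Pax5 start, with Zcchc7, stood at 29.0% and 30.8% and was among the 12 lowest of the autosomes. Those 12 otherwise held the Hoxc, Hoxd and Hoxa clusters, Zic1 and Zic4, a cluster of histone genes, Sp8, Nr2f2, Six3 with Six2 and windows with predicted genes or with none named. In the transcription factor list 4 genes, Bcl11a, Ebf1, Pax5 and Tcf3, were overlapped by an unmethylated run of 5 kb or more, beside 418 of all 20807 protein-coding genes (2.01%).

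Antigen presentation genes were split between the classes. Of 10 genes of the MHC class II pathway 2 promoters were unmethylated, H2-DMa at 0.731% and 0.602% and H2-DMb2 at 16.9% and 10.6%, 6 were intermediate, and the medians were 28.95% and 31.45%. Of the 9 that are CpG-poor 1 (11.1%) was unmethylated, near the 7.63% of all CpG-poor promoters in this window. Within 500 bp of the start, and with CpGs of at least 10 reads, 3 of the 9 were. The share of all CpG-poor promoters was not counted in those settings. H2-Aa had 22.7% and 21.6% (14.6% and 12% with CpGs of at least 10 reads), the invariant chain Cd74 25% and 30.9%, and H2-Eb1 32.9% and 32.0%. The highest were H2-Ab1 at 67.9% and 71.0% and the master regulator Ciita at 87.2% and 81.3%, and both held unmethylated tiles inside the gene, the lowest in Ciita at 3.17% and 6.30%. The count depended on the window, since within 500 bp of the start 4 of 10 were unmethylated and 5 intermediate, as also with CpGs of at least 10 reads. Within 500 bp H2-Oa, a chain of a peptide exchange regulator, was at 11.1% and 11.5% in place of 45.2% and 51.5%, and its partner H2-Ob at 11.9% and 8.45% in place of 23.1% and 19.7%.

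Genes of other B cell stages were split. Of 8 early stage genes, 2 promoters were unmethylated and 5 intermediate, and within 500 bp of the start 4 and 4, with Igll1, another surrogate light chain gene, at 11.4% and 11.97% there. In the wider window 1 of the 7 CpG-poor ones was unmethylated, which at this number cannot be set apart from the 7.63% of all. Within 500 bp 3 of the 7 were, and with CpGs of at least 10 reads 2 of the 7. The share of all CpG-poor promoters was not counted in those settings. The surrogate light chain gene Vpreb1 was at 3.23% and 6.12% and Cd93 at 7.41% and 7.66%, while the recombinase genes Rag1 and Rag2 were at 29.2% and 36.2% and at 27.4% and 30.1% (Rag2 at 7.09% and 4.25% within 500 bp), and the highest were the interleukin 7 receptor gene Il7r at 47.5% and 43.3% and Vpreb3 at 61.9% and 61.5%. Of 10 germinal centre and plasma cell genes 6 were unmethylated, near the 56.0% of all promoters, among them the repressors Bcl6 at 0.235% and 1.10% and Prdm1 at 4.85% and 5.38%, and Sdc1 (CD138) at 3.59% and 2.76%. The highest were the plasma cell genes Jchain at 88.1% and 79.7% and Tnfrsf17 at 94.0% and 95.2%.

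Immunoglobulin constant genes had no unmethylated start among 12, taking 1 kb on either side of the segment start. All 12 are CpG-poor, where 7.63% of all promoters were unmethylated, so that a count of 0 is near the background. Ighm, the heavy chain of resting B cells, was at 55.4% over 462 reads and 55.6% over 324 reads, and 3 of its 8 measured tiles were unmethylated, the lowest at 0% in both libraries and centred at -4770 bases from the start. Ighd, the other heavy chain of resting B cells, was methylated at 85.3% and 95.1%. Segments used after class switching were methylated too, with Ighg1 at 93.7% and 94.4%, Ighe at 93.5% and 92.5% and Igha at 95.3% and 94.8%. The light chain segments Igkc at 56.1% and 61.0%, Iglc3 at 50% and 54.2% and Iglc2 at 35.7% and 35.6% were intermediate. Rearrangement of these loci was not modelled.

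**Figure D4:**
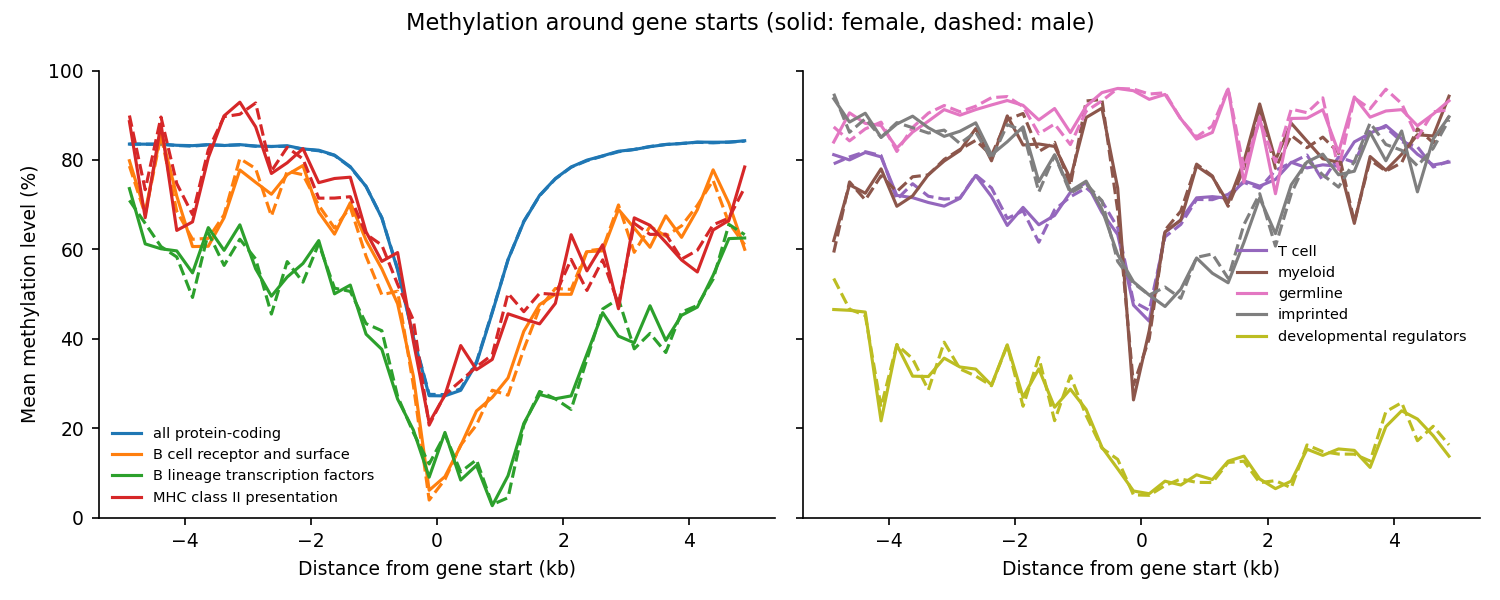
Mean methylation level (%) in 250-bp bins against distance from the gene start (kb) for gene lists, with the female library solid and the male library dashed. All protein-coding genes reach 27.3% in both bins at the start in the female library, B cell receptor and surface genes 6.16% just before it, and germline genes stay at 95.5% there.

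Genes of other blood cells are mostly CpG-poor, and were read beside CpG-poor promoters as a whole, of which 7.63% were unmethylated with a median of 82.8%. Of 22 T cell genes 5 promoters were unmethylated, 7 intermediate and 10 methylated, with medians of 71.7% and 72.9%. The lowest were the CpG-rich promoters of Lef1 at 0.890% and 0.162% and Gata3 at 2.48% and 2.97%, with Bcl11b and Tcf7 also unmethylated, and the highest were Cd3d at 94.1% and 94.9% and Ctla4 at 94.0% and 94.7%. Among CpG-poor T cell promoters 1 of 18 (5.56%) was unmethylated, Thy1 at 15.5% and 13.9%, a share near that of all CpG-poor promoters. Within 500 bp 2 of the 18 were, since the signalling adaptor gene Lat was at 2.31% and 3.33% there in place of 22.0% and 26.4%. Of 12 myeloid promoters 1 was unmethylated, the endotoxin coreceptor gene Cd14 at 12.2% and 16.2%, followed by Csf3r at 35.6% and 45.8%, with the elastase gene Elane at 87.8% and 88.5% (76.8% and 83.4% within 500 bp) and Ly6g at 90.2% and 90.5% at the top of the list. Of 11 natural killer and cytotoxic promoters 1 was unmethylated, Eomes at 1.26% and 1.71%, followed by Klrd1 at 38.8% and 32.2%, and the highest were Ncr1 at 86.8% and 88.4% and Ccl5 at 91.9% and 88.4%. None of 8 erythroid promoters was unmethylated, and the lowest mean of the 2 libraries was 22.8%. The erythroid factor gene Klf1 was at 23.5% and 36.5%, and the highest were Slc4a1 at 82.95% and 81.6% and Ermap at 93.6% and 89.4%. With CpGs of at least 10 reads 1 of 6 erythroid promoters was unmethylated. The medians over the CpG-poor members were 85.6% for T cell, 74.2% for myeloid, 79.6% for cytotoxic and 71.3% for erythroid genes. Within 500 bp of the start Csf3r was at 9.57% and 15.6%, Lyz2, which encodes lysozyme, at 16.5% and 18.3%, and Klrd1 at 14.7% and 12.1%, so that 3 of 11 myeloid and 2 of 11 cytotoxic promoters were unmethylated there. The part of other cells in the B cell levels was not tested.

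Among the 604 promoters that were CpG-poor and yet unmethylated, the 3 lowest ratios, named here after their values were seen, belonged to the tetraspanin Cd53 at 13.3% and 11.6% with a ratio of 0.0721, to Tespa1 at 10.7% and 14.7%, and to the interferon-induced GTPase gene Ifi47 at 13.3% and 14.4%. The purine-rich octamer GAGGAAGT, which matches the core that PU.1 binds, was searched on both strands of 13187 RefSeq promoter windows. It stood in 7.79% of 411 windows of CpG-poor unmethylated promoters, 5.63% of 1474 intermediate and 3.24% of 2163 methylated CpG-poor ones, and 3.12% of all windows. The Oct factor octamer ATGCAAAT stood in 1.22%, 2.04% and 2.26% of the same 3 sets and 1.49% of all. The 2 motifs have different letters and were counted separately, all windows are 300 bases long, and a match is a description of letters.

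**Figure D5:**
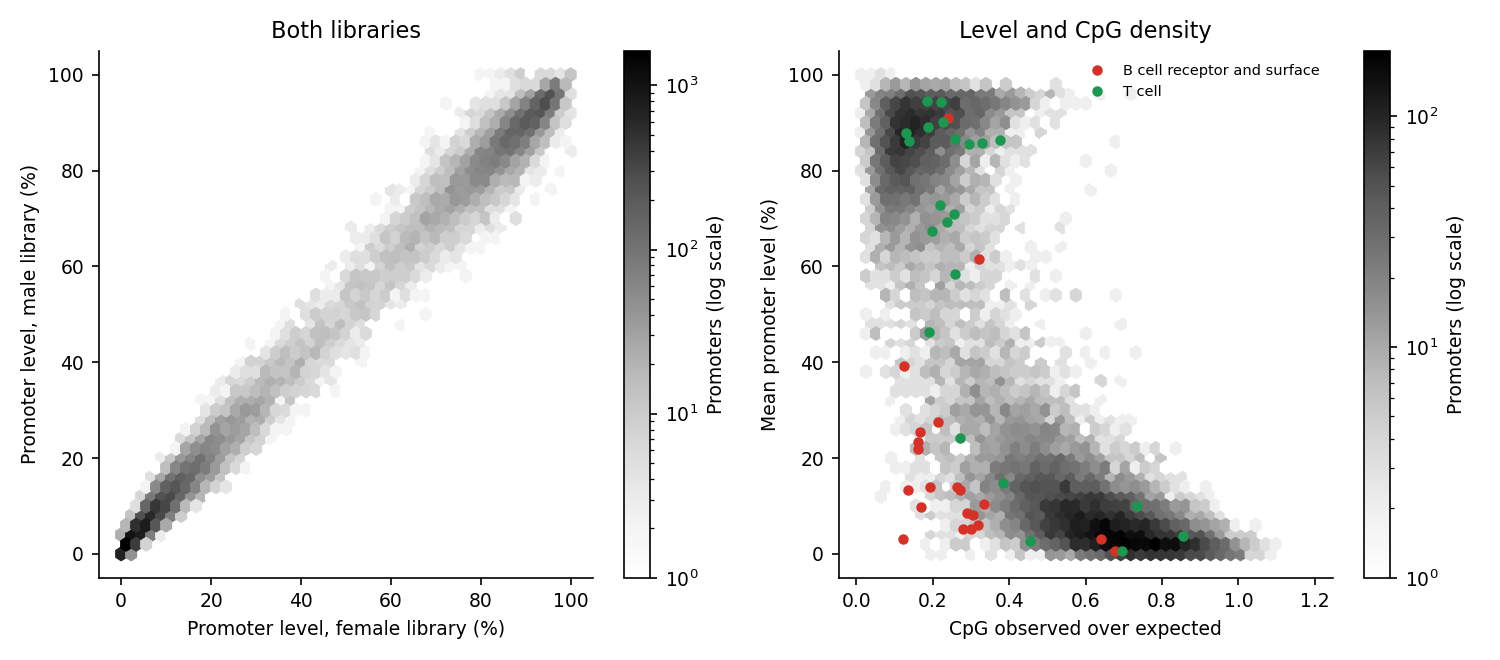
Left, promoter level (%) in the male against the female library, shaded by the number of promoters on a log scale; r is 0.996 over 19895 promoters. Right, mean promoter level (%) against CpG observed over expected with B cell receptor and surface genes in red and T cell genes in green; below a ratio of 0.4, 12 of 19 red and 1 of 18 green promoters are unmethylated in both libraries.

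The reverse, a CpG-rich promoter that was methylated, was rare, with 24 of 7277 promoters over a ratio of 0.6. Several of these are predicted genes with very deep reads, up to 855265 in the female library at Gm10722 where the median promoter had 1189. Among the others were Hoxa5 at 85.2% and 92.9%, the testis histone gene Hist1h2ba at 97.4% and 96.4%, the testis helicase gene D1Pas1 at 94.7% and 91.1%, and Hsf5 at 97.1% and 97.4%.

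Germline genes were methylated in 13 of 14 cases, beside 21.6% of all promoters, with medians of 95.1% and 95.5%. None of the 12 that are not CpG-poor was unmethylated, beside 87.9% of all such promoters. The highest were the helicase gene Ddx4 at 96.6% and 96.9% and the bromodomain gene Brdt at 97.2% and 96.3%. Dazl, an RNA-binding regulator of germ cells, was the exception at 57.5% over 2051 reads and 73.5% over 1752 reads, the next lowest being Tex101 at 84.2% and 83.3%, and its lowest tile, centred 1136 bases inside the gene, was at 3.23% and 9.20%. With 500 bp on either side of the start in place of 1 kb, Dazl was at 97.7% and 97.4%, and with CpGs of at least 10 reads at 78.2% and 83.2%.

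Imprinted genes were intermediate in 13 of 18 cases, beside 16.9% of all promoters, with medians of 53.4% and 50.3%. Kcnq1ot1 was at 46.1% and 46.7%, Peg13 at 46.4% and 47.4%, Zrsr1 at 46.0% and 46.9%, and Meg3 at 58.2% and 54.4%. The lowest were Rasgrf1 at 3.86% and 3.94% and Inpp5f at 8.78% and 10.6%, and the highest Mest at 92.9% and 93.8% and Mcts2 at 95% and 96.5%. Mest held an intermediate tile farther in, at 44.8% and 44.5% over 66 CpGs.

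Of 142465 runs of intermediate tiles 80.8% were 1 tile long. A run also ends where the next tile was not measured or fell between classes, so such a tile need not be isolated. The longest run of adjoining intermediate tiles, 17 kb near the imprinted gene Zdbf2 at chr1:63255001-63272000, was at 48.97% and 50.5% over 262 CpGs. It was followed by 12 kb over Cdc6 and the retinoic acid receptor gene Rara at 48.2% and 50.5%, and by 11 kb over Sp110 and Sp140 at 64.9% and 66.3%. Next were 11 kb near Cacna2d2 at 58.6% and 57.7%, and 10 kb over the ETS factor gene Etv6 at 48.0% and 46.2%. The Sp110 and Sp140 run was far deeper, with 7497 and 6174 reads over 118 CpGs beside 4654 and 3867 over the 262 near Zdbf2. The part of repeated copies in its level was not tested. Runs as long as that of Etv6 lay near the imprinted gene Rasgrf1 at 50.9% and 51.2%, near Wnt9a at 52.4% and 56.7%, and over Cnp with Dnajc7 at 50.4% and 51.0%. Among several runs of 9 kb, 1 lay over Cd2, at 53.4% and 50%.

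Unmethylated tiles formed 20417 runs, of which 451 were 5 kb or longer and 55 were 10 kb or longer. The longest was at the eye development factor gene Pax6 with 24 kb at chr2:105666001-105690000, at 6.05% and 7.16%, followed by Dlx1 with Dlx2 at 22 kb, Skor1 at 20 kb, the Polycomb gene Cbx8 at 19 kb, Onecut1 and Foxa1 at 18 kb each, and Lhx5, Uncx and the region of Fgfr2, Hmx3 and Hmx2 at 17 kb each. Levels in the 10 longest runs were between 4.495% and 7.58%. Of 16 developmental regulators 15 promoters were unmethylated, the 15 that are not CpG-poor, near the 87.9% of all such promoters, and 14 genes were overlapped by a run of 5 kb or more, beside 2.01% of all protein-coding genes. Their bodies had medians of 12.2% in both libraries beside 87.6% and 87.5% for all protein-coding genes. The lowest promoters were Nkx2-2 at 3.20% and 2.68% and Lhx2 at 2.82% and 4.28%, and the highest Neurod1 at 11.5% and 9.28% and Gata4 at 34% and 31.5%.

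Gene families were read beside the 87.9% of promoters that are not CpG-poor and the 7.63% of CpG-poor ones that were unmethylated. Hox genes, of which 34 are not CpG-poor, had 31 of 39 unmethylated promoters and a median body level of 16.4% and 17.2%, and replication-dependent histone genes 60 of 65. No olfactory receptor promoter of 794 with enough reads was unmethylated, of 1087 annotated, and 548 were methylated. Of 198 vomeronasal receptor promoters 1 was unmethylated, and none of 49 keratin promoters. Of these 3 families 793 of 794, 197 of 198 and 44 of 49 promoters were CpG-poor. Housekeeping genes were unmethylated in 12 of 14 cases, in all 10 that are not CpG-poor and in 2 of 4 that are, with Rpl13a at 0.6744% and 0.343% and Polr2a at 0.266% and 1.10% lowest, and with Eef1a1 at 51.5% and 56.4% (14.02% and 21.1% within 500 bp) and Ywhaz at 85.1% and 89.9% highest at their outermost starts. Of 9 genes of DNA methylation enzymes 5 were unmethylated, a share of 55.6% beside 56.0% of all promoters, with Tet2 lowest at 1.25% and 1.30%, Uhrf1 at 5.09% and 6.84%, Tet1 at 86.2% and 82.4% (63.1% and 56.9% within 500 bp) and Dnmt1 highest at 89.6% and 88.7%. Dnmt1 and Tet1 held an inner tile at 0.732% and 0.390% and at 1.29% and 1.02%.

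Away from gene starts, 10543 of 1383455 tiles at least 2 kb from every gene start (0.762%) were unmethylated. Within protein-coding genes there were 6118 of 663137 such tiles, and 3194 of 577725 when 2 kb from every transcript start was required. The counts per gene were led by Gm20388 with 66 of 3571 tiles and Fgfr2 with 27 of 2265, both annotated over several other genes. Tfap2b followed with 21 of 24, Gata4 with 20 of 69, Foxp1, a factor of the B lineage among others, with 19 of 550, Pax6 with 17 of 24, Ostm1 with 16 of 100, Gm20696, which overlaps Foxp1, with 15 of 353, Zfhx3 with 14 of 899, and Hoxc5, Lhx4, Pax7, Gse1, Arid1b and Pde4d with 13 each. Some of these tiles lie near other transcript starts, and 7519 of the 10543 were 2 kb from every transcript start, among them 54 of the 66 in Gm20388, 15 of the 27 in Fgfr2, 16 each in Tfap2b and Gata4, 12 in Foxp1 and 2 of the 17 in Pax6. Of tiles under 20 CpGs and 2 kb from every transcript start 4225 of 1218570 (0.347%) were unmethylated. The gene with most was again Gm20388 with 26. Among others, named here after their values were seen, Foxp1 held 12, Tfap2b 11, B3gnt2 8, Akap13 7, the cyclin-dependent kinase inhibitor gene Cdkn2a 6 of 9 tiles, the ETS factor gene Elf1 6 of 75, and the lymphoid factor gene Ikzf1 5 of 62.

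The 2 libraries agreed closely. Over tiles, Pearson's correlation was 0.967 and Spearman's 0.825 (across tiles, which are not independent), and the median absolute difference was 2.38 points, where counting alone gives 2.27. Within 10 points lay 96.2% of tiles. The variance of the difference was 1.29 times that from counting over all tiles, 1.10 times in tiles with 20 to 49 reads and 2.92 times in tiles with 400 or more. Promoters, which are deeper, had r of 0.996 and a ratio of 3.73. A read counts at each CpG it covers, so the values from counting are too small and these ratios too high. At unmethylated promoters the male library was higher in 74.2% of 11136 cases, with a median female minus male difference of -0.773 points, beside mitochondrial levels of 0.271% and 0.727%. The part of incomplete conversion in this difference was not tested.

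Single regions were compared by a 2-sided Fisher's exact test of methylated and unmethylated reads with Benjamini-Hochberg adjustment, called at an adjusted p under 0.05 and at least 20 points. This compares 2 libraries and not the sexes, and CpGs of 1 read are not independent, so the p-values are too small. Of the tiles 337 (0.0217%) were called, 177 higher in the female and 160 in the male library, and 102135 had an unadjusted p under 0.05. Without the minimum difference 2474 tiles passed, 752 higher in the female and 1722 in the male library. The called tiles were 219 intermediate and 118 between classes. An unmethylated or a methylated tile could not be called, since levels within either class differ by less than 20 points. The absence of such tiles among the called ones was therefore set by the limits and is not a result. The largest difference with higher female level was near C1s2 at chr6:124639001-124640000, 89.2% of 314 reads and 23.2% of 1073 reads (Fisher's exact test, adjusted p = 9.54e-97), and its male reads were 4.15 times the female reads after scaling for depth. It was followed by an intronic tile 198711 bases from Satb1 at 84.8% and 26.8%, tiles 23104 bases from Eapp at 75% and 27.3% and 74659 bases from Aqp9 at 60.9% and 16.4%, and an exonic tile of Cep85 at 74.6% and 30.8%. Cep85, a centrosome gene, had 3 adjoining called tiles at chr4:134162001-134165000, with female levels of 57.6%, 61.6% and 74.6% and male levels of 30%, 27.3% and 30.8%. The paper lists an endogenous retrovirus that overlaps these tiles, with methylation that varied between individual mice in its pyrosequencing. The part of that element in the difference was not tested. In the other direction the largest was 10498 bases from Hist1h2bn, 0% of 29 reads and 48.0% of 25 reads (Fisher's exact test, adjusted p = 0.016), then tiles 239020 bases from Podxl at 54.3% and 100%, near the lymphotoxin gene Ltb at 6.45% and 40.6%, 16525 bases from Ybx3 at 43.8% and 76.8%, and 16696 bases from Casr at 33.3% and 65.6%.

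Only 3 promoters (0.0151%) were called, all higher in the female library, namely the vomeronasal receptor genes Vmn1r151 at 83.9% and 63.4% and Vmn1r80 at 78.7% and 56.5%, and Gm1604a at 71.2% and 46.5%. An adjusted p under 0.05 without the minimum difference was reached by 2922 promoters, 2571 of them higher in the male library. None of the 21 B cell receptor and surface promoters and none of the 14 B lineage factors was called. The largest differences among them were 9.47 points at Fcer2a and 7.64 points at Spib. For most of them a call was not possible, since levels within the unmethylated class, or within the methylated class, cannot differ by the minimum. These classes held 14 and 1 of the 21 receptor promoters, and 12 and 1 of the 14 factors. The absence of calls therefore says little of these lists.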

How the data were processed

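DNA methylation was measured by WGoxBS in resting CD43- B cells of female and male C57BL/6J mice. For each CpG with at least 5 reads, the authors deposited a methylation fraction, rounded up to 3 decimals, beside a read count, with both strands joined in 1 line. The submitters' processing notes name Trim Galore, FastQC, Bismark 0.13.1 and build mm10. Removal of duplicate reads is not given in the sources used here. Methylated reads were recovered by rounding the product of level and reads down, which gave back 100% of the deposited levels.

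Reads were summed over CpGs listed in both files on chromosomes 1 to 19, in tiles and in promoters (1 kb on either side of the outermost start in GENCODE M21), with no replicate spread. The levels, classes and runs are descriptions. The 2 libraries were compared by Fisher's exact test with Benjamini-Hochberg adjustment. The code was tried on simulated data with reads drawn independently, which does not cover reads that count at several CpGs. Wilson 95% intervals cover counting error only and take a read again at each CpG it covers. Promoter sequences came from RefSeq (GRCm38.p6). Python 3.11.15, numpy 2.4.6, pandas 2.3.3, scipy 1.17.1 and numba 0.67.0 were used.

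The members and gene lists were chosen with earlier results of these data known. Named genes were the 5 markers, the 2 lowest and 2 highest promoters of each list (families as counts only) with members described by role, the 10 longest unmethylated runs, the 10 genes with most unmethylated tiles away from gene starts, the 5 longest intermediate runs, the 5 densest methylated tiles and the 5 largest called differences in each direction. Some genes under this rule are not reported here. The limits for CpG-poor and CpG-rich promoters, the motifs and the genes named under them were chosen after the data were seen. Alternatives were other class limits, tile sizes, windows, coverage minimums, weights, and each library alone.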

Additional observations from a re-analysis of the deposited data

Results flagged for a closer look

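Mitochondrial CpGs, which entered no comparison of tiles or promoters, showed some methylated reads. They were listed because the level exceeds 3 counts of the total, a limit that nearly any level above 0 passes at this depth. In the female library 0.271% of 162344 reads were methylated (Wilson 95% interval 0.247 to 0.298), where 3 counts of the total would be 0.00185%. In the male library 0.727% of 142442 reads were methylated (0.684 to 0.772), where the limit would be 0.00211%. The libraries differ in this value and in the level of unmethylated promoters, and a link was not tested.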

How the results depend on the processing

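Of 73 alternative counts 46 stayed within 1.5 times the value reported and 27 did not. Class limits of 10% and 90% gave 516724 intermediate and 764409 methylated tiles, 8306 intermediate and 1846 methylated promoters, 3228 intragenic unmethylated tiles away from gene starts and 167 unmethylated runs of 5 kb or more. Limits of 30% and 70% gave 79938 intermediate tiles, 1532 intermediate promoters and 9388 intragenic unmethylated tiles. Tiles of 500 bp gave 67071 unmethylated tiles, and 5-kb tiles gave 4643 unmethylated, 57168 intermediate and 388114 methylated, of 474620 tested. With at least 10 CpGs per tile 90097 (13.4%) were intermediate and 521862 (77.9%) methylated, of 669695 tested, and the 31168 unmethylated were 4.65% of them. Promoter windows of 500 bp on either side gave 2081 intermediate promoters and 7 called ones. Called tiles were 2474 with no minimum difference, 1372 at 10 points, 38 at 30 points, 6 in 5-kb tiles and 158 with CpGs of at least 10 reads. Called promoters were 2922 with no minimum difference, 169 at 10 points and 1 with CpGs of at least 10 reads. Distance from every transcript start, chosen after seeing the data, gave 3194 intragenic unmethylated tiles, and 1986 with under 20 CpGs as well. Apart from the changed number of tiles or limits, the cause was not tested. Each library alone gave class counts within 1.5 times. Leaving out replicates was not possible, since each sex has 1 file. No paired analysis was possible because the groups share no replicate numbers and each has 1 file. CpGs under 5 reads are not listed, a median of 17 and 14 reads per CpG limits single sites, and a level says nothing of expression.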
